A study of Mus musculus with 20 samples.

Results

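The transcription factors described here are 10 genes known from endothelial cells, the cells that line blood vessels: Erg, Fli1, Sox7, Sox17, Sox18, Nr2f2, Gata2, Gata5, Tbx3 and Tal1. They were chosen by name, as the rows of the deposited count table that carry these symbols, and all 10 of them were found among the 34255 genes of the table. The study compared 4 microvascular compartments of the kidney cortex (the arterioles, the glomeruli, the peritubular capillaries and the post-capillary venules), each cut from kidney sections by laser microdissection, with sections of whole kidney. All groups came from healthy, untreated male mice, labelled as strain C57BL6/OlaHsd and genotype WT and with no age in the labels, and each group had 4 libraries. Samples of a group are labelled as biological replicates with no mouse named. The p-values reflect only how far such samples lie apart, which may be technical in part. Per the study's methods, arterioles, glomeruli and venules were cut from the same slide of each mouse and capillaries from another slide. Compartments may therefore share mice, and the main tests did not pair them. Arterioles, glomeruli and venules had been picked by shape on hematoxylin-stained slides and capillaries by a fluorescent lectin, so each cut also holds cells beside the endothelium. A library is called by its group and its column number (93, 96, 98 or 100), and values are listed in that order.

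A transcription factor binds DNA and sets how strongly nearby genes are read. Erg and Fli1 belong to the ETS family, which binds enhancers of most genes that define endothelium, such as those for its junction proteins. Sox7, Sox17 and Sox18 form the SOXF group, which works in arterial fate and vessel sprouting, while Nr2f2 (COUP-TFII) is known for venous and lymphatic identity. Gata2 and Tal1 act in blood and endothelial cells in a complex with Lmo2, Gata5 is a GATA factor of heart and endothelium, and Tbx3 is a T-box repressor of organ development.

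The members of a family share their DNA-binding region and could in principle share reads. The most alike 120 coding bases of the SOXF genes are shown for this reason, with bases identical in all 3 genes in capitals; they lie in the HMG box, the region with which SOX proteins hold DNA.
Sox17: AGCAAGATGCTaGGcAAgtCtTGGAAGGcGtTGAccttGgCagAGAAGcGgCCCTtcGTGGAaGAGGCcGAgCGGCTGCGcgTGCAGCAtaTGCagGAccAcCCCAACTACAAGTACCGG
Sox7: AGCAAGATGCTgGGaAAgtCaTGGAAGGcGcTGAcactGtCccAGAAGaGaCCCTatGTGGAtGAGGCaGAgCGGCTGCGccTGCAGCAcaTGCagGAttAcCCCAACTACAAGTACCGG
Sox18: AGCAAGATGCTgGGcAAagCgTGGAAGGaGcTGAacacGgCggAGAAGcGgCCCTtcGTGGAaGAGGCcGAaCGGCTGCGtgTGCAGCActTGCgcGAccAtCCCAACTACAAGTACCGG
Of these 120 bases, 90 were the same in all 3 genes, and Sox17 shared 84.2% with Sox7 and 85.8% with Sox18. The most alike 120 coding bases of the ETS pair, part of the ETS domain that holds DNA, were identical at 107 positions, again in capitals.
Erg: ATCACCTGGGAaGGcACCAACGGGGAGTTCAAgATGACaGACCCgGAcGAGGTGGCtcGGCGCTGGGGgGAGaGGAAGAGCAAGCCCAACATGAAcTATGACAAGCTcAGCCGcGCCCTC
Fli1: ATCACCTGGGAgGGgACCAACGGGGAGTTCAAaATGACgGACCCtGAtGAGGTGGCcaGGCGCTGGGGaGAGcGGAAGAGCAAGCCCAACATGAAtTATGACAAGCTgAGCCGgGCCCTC
The longest run of identical bases between whole transcripts was 22 bases for Erg and Fli1, 29 for Sox17 and Sox18 and 24 for Gata2 and Gata5. In the last 300 bases of the transcripts, where the reads of a 3′ library begin, it was 8 to 10 bases, shorter than the reads. All sequences are on the coding strand, from the GENCODE M21 transcripts of build GRCm38.

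Promoter sequence from RefSeq (build GRCm38.p6, 250 bases before to 50 after a start site) was given for 5 of the 10 members. The promoter of Gata5 is shown because Gata5 counts came almost wholly from glomeruli, and it lies on the minus strand at chr2:180334630-180334929.
Gata5: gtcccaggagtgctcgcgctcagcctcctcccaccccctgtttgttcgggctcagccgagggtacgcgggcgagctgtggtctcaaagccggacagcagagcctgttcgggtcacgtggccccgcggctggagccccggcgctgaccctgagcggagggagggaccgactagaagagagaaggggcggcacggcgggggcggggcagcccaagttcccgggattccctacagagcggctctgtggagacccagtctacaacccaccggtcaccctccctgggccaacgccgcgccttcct
It was searched on both strands for 4 short motifs, and none occurred there. The ETS motif was CCGGAA, held by 14.9% of all 32851 promoters of the table. For GATA factors the letters AGATAA were used, which 11.2% of these promoters held. For SOX factors they were AACAAT, held by 10.7%. The E-box, bound by Tal1 complexes, was CAGCTG, and 16.3% of the promoters held it. The third start of Erg, on the minus strand at chr16:95459299-95459598, is shown because it held letters of 2 families among the members, a GATA match from position -103 and a SOX match from position -120 (capitals; positions are counted from the start site, and the 2 matches do not overlap).
Erg: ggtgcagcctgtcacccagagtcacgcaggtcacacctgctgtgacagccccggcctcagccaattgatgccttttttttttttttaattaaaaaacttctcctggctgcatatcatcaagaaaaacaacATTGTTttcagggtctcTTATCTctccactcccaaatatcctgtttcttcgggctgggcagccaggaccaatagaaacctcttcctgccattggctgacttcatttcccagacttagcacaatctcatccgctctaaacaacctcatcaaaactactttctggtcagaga
The other promoters held at most 1 match each, GATA in the first start of Tal1 (position -205) and an E-box in the second start of Gata2 (position 17). A match is only a description of letters.

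The 20 libraries held 4639090 to 12283098 counts, gene positions are those of GENCODE M21 on GRCm38, and levels are given as CPM, counts per 1000000 counts of the normalised library total. A 3′ library yields 1 read near the end of each transcript, so CPM is not divided by gene length. Pan-endothelial markers (15 genes) summed to 4245 to 7689 CPM in arterioles, 2074 to 2323 in glomeruli, 453 to 734 in peritubular capillaries, 865 to 1110 in venules and 316 to 371 in whole kidney. The compartments thus held different shares of endothelial RNA, and fewer endothelial cells cannot be told apart from less RNA per cell. Peritubular capillary libraries also held 60240 to 112613 CPM of 6 proximal tubule markers, against 32463 to 34206 in whole kidney. Microdissected libraries were made with a low-input protocol and more PCR cycles than whole kidney, a difference that cannot be told apart from the comparison with whole kidney.

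Detection varied from library to library. Among the 160 values of the 16 microdissected libraries, 26 were 0, 35 lay between 1 and 9 counts and 99 reached 10 counts or more. Of the 26 zeros, 23 were in Gata5, Sox18 and Sox7, while Erg, Sox17, Nr2f2, Gata2 and Tbx3 had a count in every one of these libraries. In whole kidney 31 of 40 values reached 10 counts. The number of members with at least 10 counts was 7 to 9 per glomerular library, 5 to 9 per arteriole library, 4 to 7 per venule library and 3 to 5 per peritubular capillary library. Sox18 was too low for the filter, so 9 of the 10 members were tested.

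**Figure D1:**
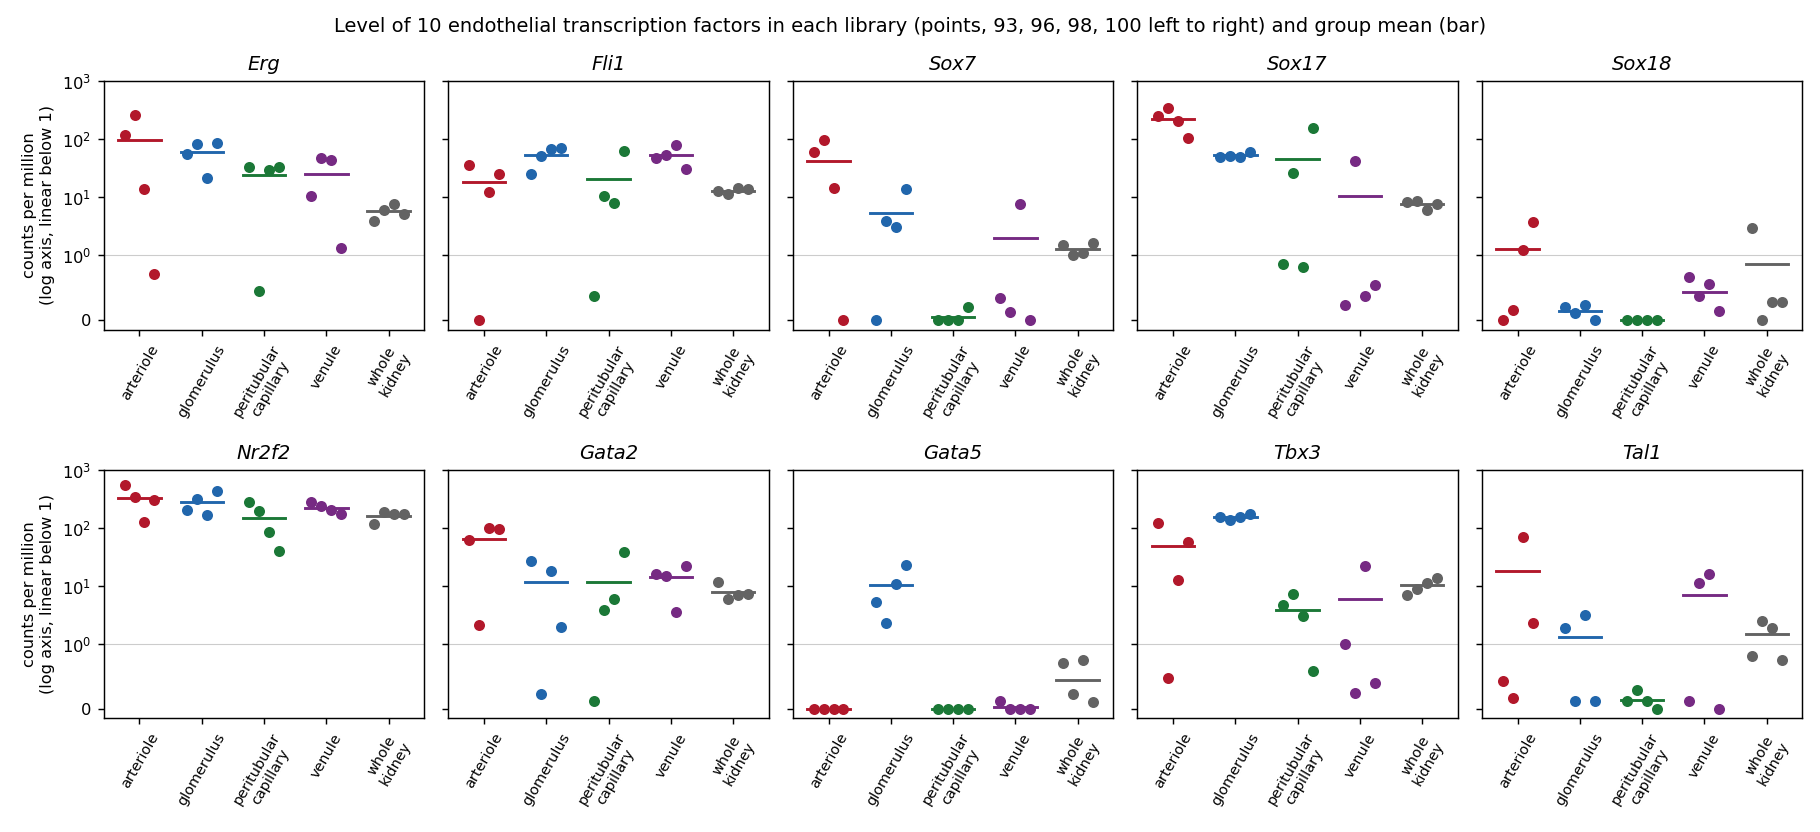
Level of each member in CPM (vertical log axis, linear below 1) in the 5 groups; points are libraries 93, 96, 98 and 100 from left to right, and bars are group means. Tbx3 and Sox17 stayed near 150 and 50 CPM in every glomerular library, while Gata5 was at 0 in all arteriole and peritubular capillary libraries.

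Sox17 (minus strand, chr1:4490931-4497354), the SOXF factor of arterial endothelium, was high in all 4 arterioles. The arterioles held 248, 337, 209 and 104 CPM, and whole kidney held 8.27, 8.60, 6.01 and 7.53 CPM. Every arteriole library lay above every whole kidney library, and the mean was 225 ± 96.6 CPM (SD, n = 4) against 7.60 ± 1.15 (SD, n = 4), a ratio of 29.5. Glomeruli held 50.2, 52.2, 49.0 and 58.9 CPM, the most even values of any member in a microdissected group. Peritubular capillaries split into library 100 with 155 CPM, library 96 with 25.7 and the other 2 libraries below 1 CPM. Venules held 41.5 CPM in library 96 and at most 0.534 in the others. Sox17 rose in arterioles against whole kidney, with a log2 fold change of 4.88 ± 1.38 (SE) and an FDR of 0.0189 (edgeR's quasi-likelihood test). It also rose against the mean of the other compartments, by 2.93 ± 0.91 on the log2 scale with an FDR of 0.0309 in the same test. The first call was lost without any 1 of the 4 whole kidney libraries (edgeR FDR 0.0554 to 0.0640). The second was lost without arteriole 93, 96 or 98 (edgeR FDR 0.0502 to 0.0823), and its log2 value was 4.54 without venule 96 and 3.71 without peritubular capillary 100.

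Sox7 (plus strand, chr14:63943673-63950732), a SOXF factor of vessel development, was high in 3 arterioles and absent in the fourth. Arterioles held 59.2, 96.5, 14.6 and 0 CPM, glomeruli 0, 3.96, 3.10 and 13.9, and whole kidney 1.03 to 1.6 in its 4 libraries. Peritubular capillaries held 1 count in all, in library 100, and venules 45 counts, of which library 98 held 41. Arterioles and peritubular capillaries overlapped only through arteriole 100. The ratio of the arteriole mean to the peritubular capillary mean was 874, with a 95% Poisson interval of 157 to 34529 that covers only the counting error of that 1 count. Sox7 was called higher in arterioles than in the mean of the other compartments (edgeR log2 fold change 5.64, FDR 0.0144) and than in peritubular capillaries (edgeR log2 fold change 9.53, FDR 0.0304). These fold changes rest on a group with at most 3 counts, so they depend on the prior count and are given without SE. The first call was lost without arteriole 96 (edgeR FDR 0.0739), and the second without arteriole 96 or peritubular capillary 93, 96 or 98 (edgeR FDR 0.0712 to 0.0769). The first call was also lost with the library number as a replicate block (edgeR FDR 0.0590). Its log2 value ran from 4.88 without arteriole 96 to 6.84 without venule 98, with 6.27 without peritubular capillary 100. For the second, the log2 value was 8.77 without arteriole 96 and 11.4 without peritubular capillary 100, and the ratio of means was 505 without arteriole 96. Without peritubular capillary 100 no count was left there, and the arteriole mean was at least 334-fold higher, taking 3 counts over the group as the floor. Against whole kidney the arteriole value of 5.01 ± 2.14 was not called (edgeR FDR 0.10).

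Sox18, the SOXF factor of lymphatic and vessel development, stayed low everywhere. The highest values were 3.73 CPM in arteriole 100 and 2.92 CPM in whole kidney 93. Peritubular capillaries held no count in 4 libraries, which allows up to 0.105 CPM over the group (3 counts, counting error only).

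Erg (minus strand, chr16:95359169-95586593), the ETS factor that keeps endothelial identity, was read in all groups. Arterioles held 116, 256, 14 and 0.711 CPM, and glomeruli 55.0, 81.6, 21.1 and 87.1. Peritubular capillaries held 33.4, 0.440, 29.4 and 33.7 CPM, venules 10.6, 47.1, 43.4 and 1.33, and whole kidney 3.93, 5.97, 7.71 and 5.17. All 4 glomerular libraries and 3 of 4 libraries in each other compartment lay above whole kidney. Erg rose in arterioles against whole kidney, with a log2 fold change of 4.08 ± 1.36 and an edgeR FDR of 0.0450. This call was lost without arteriole 93 (FDR 0.0677) or 96 (FDR 0.141) and without any 1 whole kidney library (edgeR FDR 0.0948 to 0.109); without arteriole 96 the log2 value was 2.92. It was also lost with the library number as a replicate block (log2 3.68, edgeR FDR 0.0790) and with only arteriole and whole kidney libraries in the fit (edgeR FDR 0.0585). The glomerular value, 3.42 ± 1.31, was not called (edgeR FDR 0.158).

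Fli1, the ETS partner of Erg, had its highest levels in glomeruli and venules. Glomeruli held 25.1, 51.3, 66.7 and 69.9 CPM and venules 47.9, 53.4, 78.0 and 30.3, all above the whole kidney values of 11.2 to 14.3. Arterioles held 36.1, 0, 12.2 and 25.4 CPM, and peritubular capillaries 0.371, 10.4, 8.01 and 63.7. Leukocyte markers (8 genes) summed to 261 to 384 CPM in glomeruli and 184 to 519 in venules. They summed to 153 to 511 in arterioles, 109 to 222 in peritubular capillaries and 126 to 173 in whole kidney. The part of leukocytes in the Fli1 levels was not tested. The main edgeR test called no Fli1 comparison; the log2 fold change against whole kidney was 2.03 ± 1.30 in glomeruli and 2.01 ± 1.30 in venules (edgeR FDR 0.550 and 0.807). With only the libraries compared in the fit, edgeR called Fli1 higher in both glomeruli and venules than in whole kidney (FDR 0.00679 and 0.0321). Fli1 overlaps 5 annotated non-coding or gene models on its own strand, so some of its reads may have been split among them; none covers its 3′ end.

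Nr2f2, the venous factor, was the member with the highest mean CPM in every group. It reached 10 counts in all 20 libraries. Venules held 277, 233, 204 and 171 CPM, and arterioles 541, 337, 125 and 303. Glomeruli held 201, 316, 166 and 429 CPM, peritubular capillaries 282, 194, 84.6 and 39.2, and whole kidney 116, 189, 173 and 173. The means ran from 327 ± 170 CPM in arterioles to 150 ± 109 in peritubular capillaries (SD, n = 4), and neighbours in this order overlapped in every case. Neither edgeR's main test nor any alternative setting called Nr2f2 in a comparison; the log2 difference between venules and the mean of the other compartments was -0.11 ± 0.49 (edgeR FDR 0.984). Arteriole 93, the highest library for Nr2f2, held 353 CPM of 2 lymphatic marker genes, against 18.6 to 22.7 in whole kidney. Arterioles 96, 98 and 100 held 0.481, 0.112 and 0 CPM of these markers and 337, 125 and 303 CPM of Nr2f2. The part of lymphatic cells in the Nr2f2 level was not tested.

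Tbx3 (plus strand, chr5:119670669-119684724) was high in every glomerular library. Glomeruli held 153, 135, 151 and 173 CPM, above every other library of the series, and whole kidney held 7.06 to 13.9 CPM. Arterioles varied from 0.481 to 122 CPM, peritubular capillaries held 0.584 to 7.19, and venules held 21.8 CPM in library 98 and at most 1.00 in the others. The glomerular mean of 153 ± 15.5 CPM (SD, n = 4) was 15 times that of whole kidney and 39.5 times that of peritubular capillaries. Tbx3 rose in glomeruli against the mean of the other compartments, by 3.89 ± 0.96 on the log2 scale (edgeR FDR 0.0120), and the call held without any 1 of the 16 libraries (edgeR FDR 0.000989 to 0.0448), with a log2 value of 5.01 without venule 98. It also rose against peritubular capillaries (5.30 ± 1.54, edgeR FDR 0.0383), a call lost without any 1 of these 8 libraries (edgeR FDR 0.0668 to 0.118). Against whole kidney it was not called (3.90 ± 1.34, edgeR FDR 0.101).

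Gata5 (minus strand, chr2:180325133-180334699) was read almost only in glomeruli. They held 53, 21, 141 and 207 counts, or 5.29, 2.31, 10.9 and 22.7 CPM. Arterioles and peritubular capillaries held no count, venules held 1 count in library 93, and whole kidney held 0.0941 to 0.751 CPM. The glomerular mean of 10.3 ± 9.02 CPM (SD, n = 4) was 23.2 times that of whole kidney and at least 87.7-fold higher than in arterioles and 98.5-fold higher than in peritubular capillaries, taking 3 counts over the lower group as the floor. Without glomerulus 100 the mean was 6.18 CPM, the ratio to whole kidney 13.9 and the bounds 52.5 and 59.0; without arteriole 98 the bound against arterioles was 57.0. Gata5 rose in glomeruli against the mean of the other compartments (edgeR FDR 0.00144), and the call held without any 1 library (edgeR FDR 0.00385 to 0.00709). It reached 10 counts in 4 of the 16 microdissected libraries, all of them glomerular. Gata5 thus passed the filter on low counts only through the group where it was high, which limits this call. The fitted log2 value of 8.83, or 8.08 without glomerulus 100, depends on the prior count and is no bound. The value against whole kidney, 4.49 ± 2.01, was not called (edgeR FDR 0.264).

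Glomerular libraries also held 7071 to 8438 CPM of 7 podocyte markers, all 7 of them detected, against 1090 to 1753 in arterioles, 174 to 296 in peritubular capillaries, 239 to 591 in venules and 201 to 228 in whole kidney. They also held 853 to 1191 CPM of 6 mesangial and pericyte markers, against 110 to 123 in whole kidney. The part of these cells in the Tbx3 and Gata5 levels was not tested. The cut arterioles held 13166 to 34559 CPM of 7 smooth muscle markers, against 200 to 240 in whole kidney. They held 4756 to 9827 CPM of the 6 mesangial and pericyte markers and 2026 to 4730 CPM of 7 fibroblast markers, against 277 to 302 in whole kidney for the latter. Venules held 1001 to 2768 CPM of the fibroblast markers. The part of these cells in the Sox17, Sox7, Erg and Nr2f2 levels was not tested either.

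Gata2 and Tal1, which act together in blood cells and endothelium, differed widely between libraries of the same group. Gata2 held 60.9, 2.08, 101 and 96.3 CPM in arterioles and 5.97 to 11.6 in whole kidney. Glomeruli held 26.9, 0.220, 18.3 and 1.98 CPM, peritubular capillaries 0.124 to 37.8, and venules 16.3, 14.9, 3.51 and 22.1. Its arteriole value of 3.04 ± 1.53 against whole kidney was not called (edgeR FDR 0.159), while DESeq2 (FDR 0.0368) and edgeR's version 4 form (FDR 0.0167) called it; the latter also called it against the mean of the other compartments (FDR 0.0195). Tal1 held 68.8 CPM in arteriole 98 and 11.3 and 16.1 CPM in venules 96 and 98, and at most 3.10 CPM in every other library. The main edgeR test called no Tal1 comparison. Tal1 was called higher in arterioles than in the mean of the other compartments by DESeq2 (FDR 0.0253), by edgeR's version 4 form (FDR 0.0147) and by edgeR with all 20 libraries in the fit (FDR 0.0433). DESeq2 and edgeR's version 4 form also called it higher in arterioles than in peritubular capillaries (FDR 0.00199 and 0.0392). Of the same 2 tools, edgeR's version 4 form called it higher in arterioles than in whole kidney (FDR 0.0203), and DESeq2 called it lower in peritubular capillaries than in the mean of the others (FDR 0.0108). Erythrocyte and platelet markers (8 genes) summed to 10508 CPM in arteriole 98, the lowest of the 4 arterioles, and to 51012 and 16969 CPM in venules 96 and 98. The defining mast cell markers Cpa3, Mcpt4 and Fcer1a were at 0 in all microdissected groups. Kit, the remaining gene of that list, was at 45.7 CPM in arteriole 98, against at most 0.160 in the other arterioles. In peritubular capillary 100, which held the 37.8 CPM of Gata2, Kit was at 36.8 CPM, against at most 0.116 in the other capillary libraries. Tal1 had no count in that library. Venules 96 and 98 held 0 and 0.184 CPM of Kit, and venule 100, with no Tal1 count, held 8.80 CPM. Mcpt4 and Fcer1a were at 0 in whole kidney too, and whether the Kit counts came from mast cells was not tested. The part of cells with Kit in the Gata2 and Tal1 levels was not tested.

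**Figure D2:**
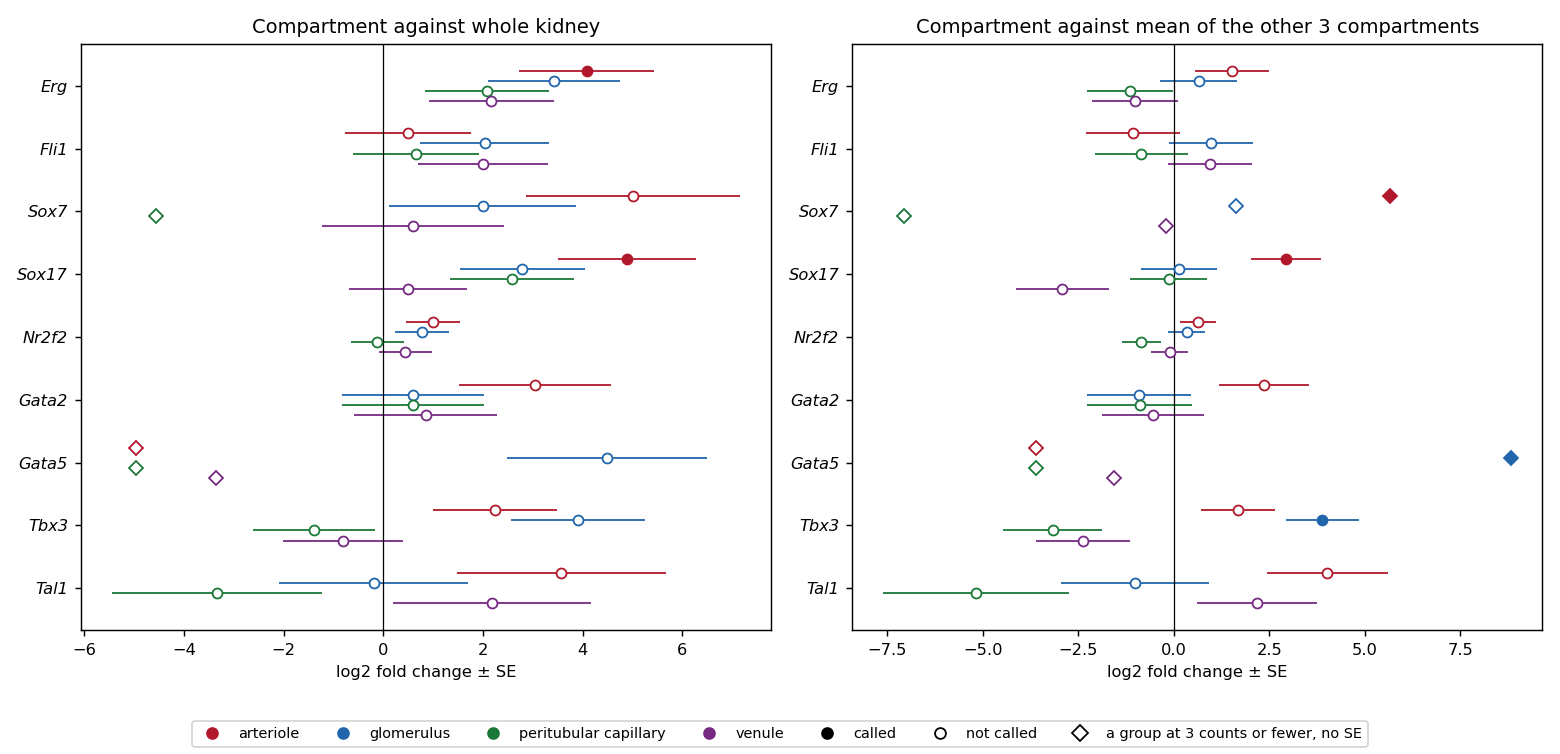
Log2 fold change (horizontal axis) of the 9 tested members in each compartment against whole kidney (left) and against the mean of the other 3 compartments (right), with bars of 1 SE; filled symbols were called, open ones were not, and diamonds mark contrasts with a group at 3 counts or fewer, drawn without SE. Only Sox17 in arterioles was called in both panels.

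Read over the list, the calls were few. Against whole kidney 2 of 9 members were called higher in arterioles (at FDR under 0.05 and a fold above 2), where 5.78% of all 13813 genes were, and the median log2 fold change was 3.04 for the members and 0.22 for all genes. There 4 of 9 members and 33.1% of all genes were under 0.05 unadjusted in edgeR's test. In glomeruli 0 of 9 were called (1.59% of all genes), with 4 of 9 (15% of all genes) at an unadjusted p under 0.05 in edgeR's test, 2 called by DESeq2 and 3 by the version 4 form of edgeR's test. In peritubular capillaries 0 of 9 were called (0.0869% of all genes), with 3 of 9 under 0.05 unadjusted (12.4% of all genes) and 0 by either of those tools. In venules 0 of 9 were called (0.203% of all genes), with 0 under 0.05 unadjusted (9.36% of all genes) and 0 by either tool.

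Against the mean of the other compartments (FDR under 0.05), 2 of 9 members were called higher in arterioles, against 8.11% of all 12179 genes, and 2 of 9 in glomeruli, against 2.46%. Of the glomerular 2, Gata5 passed the filter on low counts only through its glomerular libraries. None was called in peritubular capillaries (4.3% of all genes higher and 2.91% lower). There 3 were under 0.05 unadjusted in edgeR's test (22% of all genes), all of them lower: Tbx3 (log2 -3.18), Tal1 (-5.18) and Sox7 (-7.06, which depends on the prior count). DESeq2 called these 3, and edgeR's version 4 form called 0. None was called in venules (0.369% higher and 0.181% lower), with 1 under 0.05 unadjusted in edgeR's test, Sox17, which was lower (log2 -2.93), where 12.3% of all genes were, and 0 by either tool. Between pairs of compartments, in either direction, 1 of 9 was called between arterioles and peritubular capillaries (11.2% of all genes) and 1 between glomeruli and peritubular capillaries (4.5%). None was called in the other 4 pairs: arterioles and glomeruli (2.19% of all genes), arterioles and venules (4.38%), glomeruli and venules (1.22%), and peritubular capillaries and venules (0.411%). In those pairs 1, 2, 2 and 2 members were under 0.05 unadjusted in edgeR's test, as were 19.0%, 22.7%, 11.5% and 11.2% of all genes. There DESeq2 called 1, 1, 2 and 0, and edgeR's version 4 form called 0, 2, 1 and 0. The comparisons share libraries, so their values are not independent.

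Because the compartments held different shares of endothelial RNA, each member's counts were also set against 1000 counts of the 15 pan-endothelial genes. The mean sum of these genes was 5742 CPM in arterioles, 2204 in glomeruli, 1033 in venules and 562 in peritubular capillaries. A gene with the same CPM in all compartments would therefore also have its lowest mean in arterioles on this scale. On this scale Nr2f2 had its lowest mean in arterioles. Its libraries held 27.7 to 83 there against 193 to 252 in venules, without overlap. In CPM its mean had been higher in arterioles (327) than in venules (221). Per 1000 pan-endothelial counts its mean was 56.5 ± 25.3 in arterioles and 213 ± 27.2 in venules (SD, n = 4). It was 282 ± 198 in peritubular capillaries, with a range of 53.4 to 487, and 480 ± 96.5 in whole kidney. Fli1 also had its lowest mean in arterioles, at 3.56 ± 2.78, against 24.1 ± 9.0 in glomeruli and 50.1 ± 16.7 in venules (SD, n = 4). In whole kidney it was 38.6 ± 6.28, above the glomerular mean on this scale. Tbx3 reached 69.4 ± 3.89 in glomeruli and at most 20.6 in any library of the other compartments, and whole kidney held 20.4 to 44.1. Sox17 was 38.2 ± 9.69 in arterioles and 23.8 ± 1.62 in glomeruli, close to the 22.3 ± 2.74 of whole kidney. Its highest mean was in peritubular capillaries, 66.9 ± 99.3, where library 100 held 211, and venules held 9.64 ± 18.5. Erg, called higher in arterioles on the CPM scale, had its lowest mean there on this scale. It was 13.6 ± 15.2 in arterioles, 16.8 ± 4.95 in whole kidney, 23.6 ± 21.1 in venules, 27.8 ± 13.7 in glomeruli and 42.4 ± 28.7 in peritubular capillaries, and the compartments overlapped. Of 60 tests (10 members, 6 pairs of compartments), 13 gave the smallest p that an exact two-sided permutation test of 4 against 4 libraries allows, 0.0286. Of these, 3 were for Fli1, 2 for Nr2f2, 3 for Gata5, 3 for Tbx3 and 2 for Sox18, whose counts were at most 21 in any compartment library. None stayed under 0.05 after adjustment over the 60 tests (smallest Benjamini-Hochberg value 0.132 from the exact permutation tests). With 4 against 4 libraries the smallest p lies so near 0.05 that this adjustment could hardly be passed. The adjusted values therefore do not decide whether the members differ on this scale. The share of all genes at the smallest p was not computed on this scale. The 13 tests are therefore not read as a result about the members.

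**Figure D3:**
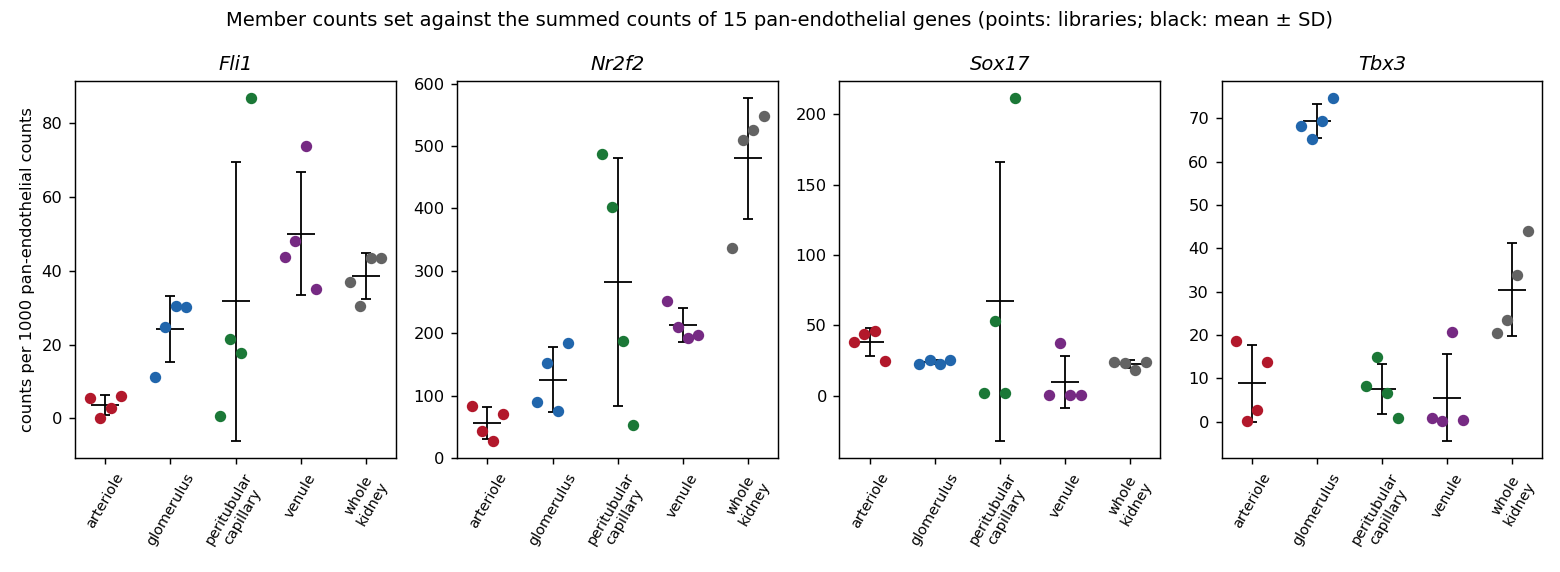
Counts of Fli1, Nr2f2, Sox17 and Tbx3 per 1000 counts of 15 pan-endothelial genes (vertical axis) in the 5 groups; points are libraries and black marks are mean ± SD of 4. Tbx3 was 65.3 to 74.6 in glomeruli. The compartment means of Nr2f2 and Fli1 were lowest in arterioles, where the pan-endothelial sum was highest.

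Genes with which the members are known to work were read from lists chosen for their roles. Their counts stand beside 5.78% of all genes called higher in arterioles and 1.59% in glomeruli against whole kidney. In peritubular capillaries and venules these shares were 0.0869% and 0.203%. Of 17 tested genes known as ETS targets, 13 rose in arterioles and 8 in glomeruli against whole kidney, and none in peritubular capillaries or venules; the medians were 3.89 and 2.43 on the log2 scale in arterioles and glomeruli, against 0.22 and 0.25 for all genes. Of the 17, 11 are also in the pan-endothelial list. They included the junction genes Pecam1 (1654 ± 1127 CPM in arterioles, 64.8 ± 9.04 in whole kidney; SD, n = 4) and Cldn5 (392 ± 175 against 2.68 ± 0.35). In glomeruli Kdr, a receptor for vascular endothelial growth factor, rose to 1256 ± 264 CPM from 135 ± 27.5 in whole kidney. Of 12 partners of the members in protein complexes, 4 rose in arterioles (Mef2c, Cbfa2t3, Lmo2 and Tcf4) and 1 in glomeruli (Cbfa2t3). Lmo2, the bridge between Gata2 and Tal1, was at 151 ± 148 CPM in arterioles and 9.34 ± 1.59 in whole kidney (edgeR FDR 0.0351).

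Of 20 tested relatives of the members, Gata3, Sox13 and Gata6 rose in arterioles, and Gata3 alone rose in glomeruli (157 ± 32.9 CPM against 24.5 ± 5.73 in whole kidney; SD, n = 4). Of 19 other endothelial regulators, 8 rose and 1 fell in arterioles and 3 rose in glomeruli. Epas1, an oxygen-regulated factor, rose in both, to 1592 ± 797 and 642 ± 117 CPM from 83.5 ± 9.46 in whole kidney. Of 12 arterial genes, 7 rose in arterioles and 4 in glomeruli, where Sema3g (944 ± 230 CPM) and Gja4 (140 ± 15.6 CPM) were among them. Of 7 tested venous genes, none was called higher in venules than in whole kidney, where 0.203% of all genes were. Their median log2 fold change there was 1.53, against 0.19 for all genes. Emcn fell in arterioles (16.6 ± 20.3 CPM against 70.9 ± 9.54) and rose in glomeruli (672 ± 94.2 CPM). Selp, an adhesion gene of activated endothelium and platelets, was called higher in arterioles (46.9 ± 76.0 CPM against 0.391 ± 0.193, edgeR FDR 0.0337). Of the 87 genes of these 6 lists that were tested, edgeR's test called none in peritubular capillaries or in venules against whole kidney; there 14 and 20 were under 0.05 unadjusted (12.4% and 9.36% of all genes), DESeq2 called 4 and 3, and edgeR's version 4 form called none in either.

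The genes whose pattern over the 16 microdissected libraries was most like a member's were found by Pearson correlation of log2(CPM + 1), as a description across libraries that share the compartment differences. For Sox17 these were Gja4 (r = 0.90), a gap junction gene of arteries, Arglu1 (0.90) and S100a16 (0.87). For Tbx3 they were Maml3 (0.88), a Notch coactivator, Smad6 (0.87), an inhibitor of BMP signalling, and Plce1 (0.86), a phospholipase of podocytes, with 156, 32.0 and 199 CPM in glomeruli and 2.31, 0.238 and 7.45 CPM in peritubular capillaries. Erg was most like Epm2aip1 (0.95), Cep57 (0.82) and Cerk (0.82), and Fli1 most like Hectd4 (0.88), Prr14l (0.85) and Rpl26 (0.84). Nr2f2 was most like Aff4 (0.89), Smc1a (0.89) and Cbx3 (0.87), and Gata2 most like Slc2a8 (0.82), Nrbp2 (0.80) and Gtf2h4 (0.77). Among the members, the highest r was 0.69, between Gata5 and Tbx3, followed by 0.62 between Erg and Sox7.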

How the data were processed

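The authors deposited raw read counts per gene in 1 table, unnormalised and unfiltered. Per the study's methods, 3′ mRNA libraries (QuantSeq FWD) were made from laser-microdissected compartments and whole kidney sections, reads were trimmed and aligned to build GRCm38.p6, and counted per gene. The submitters' processing notes name STAR 2.7, SAMtools 1.9 and HTSeq 0.13, and also featureCounts and a later mouse build (GRCm39), without giving a role. No strand setting and no removal of PCR duplicates is named in the labels or methods, so PCR copies may be counted and reads of overlapping antisense genes cannot be told apart (Sox17, Nr2f2, Fli1, Gata5 and Tbx3 have one). Of 168 value columns, 20 were used by the section and treatment in the header lines, and 148 were not. The numbers 93 to 100 are library names; nothing ties them to the labelled replicates. The name of the peritubular capillary 96 column carries the letters WH, which are not explained.

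Tests on the counts ran in edgeR 4.0.16 under R 4.3.3 (TMM, filterByExpr, the legacy quasi-likelihood F test, Benjamini-Hochberg FDR over all genes tested): 13813 genes in 20 libraries against whole kidney, called at FDR under 0.05 and a log2 change beyond 1, and 12179 genes in 16 libraries between compartments, called at FDR under 0.05. SE is the log2 fold change divided by the square root of F, left out where a group held at most 3 counts, a choice made after these values were seen. Exact permutation tests used scipy. DESeq2 1.42.0 and other settings were alternatives. The scripts were tested on simulated data. The members, the lists, the rule for naming genes (all members, up to 4 called genes per list with the smallest p per comparison with whole kidney, and the 3 most correlated genes per member with 10 counts in at least 8 libraries) were chosen with earlier results of these data known. Coordinates and transcripts are from GENCODE M21, promoters from RefSeq; 34185 table identifiers (99.8%) matched GENCODE.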

Additional observations from a re-analysis of the deposited data

Results flagged for a closer look

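In 11 of 47 groups of 4 libraries with any spread in a member's CPM, 1 library lay apart from the other 3 by more than Dixon's 95% limit. That limit flags about 5% of groups by chance only for normally distributed values, which low counts are not. A single count beside 3 libraries at 0 is always flagged, as for Sox7 and Gata5 below. The 11 groups can therefore not be set against 5%. Peritubular capillary 100 stood apart for Fli1 (63.7 CPM, others at most 10.4), Sox17 (155 CPM, others at most 25.7), Gata2 (37.8 CPM, others at most 5.92) and Sox7 (0.195 CPM, a single count, others 0). Peritubular capillary 96 was low for Erg (0.440 CPM, others at least 29.4). Venule 98 was high for Sox7 (7.56 CPM, others at most 0.335) and Tbx3 (21.8 CPM, others at most 1.00), and venule 96 for Sox17 (41.5 CPM, others at most 0.534). Venule 93 held the only venule count of Gata5 (0.112 CPM). Arteriole 98 was high for Tal1 (68.8 CPM, others at most 2.31), and whole kidney 93 for Sox18 (2.92 CPM, others at most 0.282).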

How the results depend on the processing

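No log2 fold change of a called member turned its sign under any alternative. RLE normalisation and the FDR alone as the threshold left every number of called members within 1.5 times of its reported value. Against whole kidney, 2 members were called in arterioles; 1 (Sox17) remained with the library number as a replicate block and with only the libraries compared, while DESeq2 called 4 and edgeR's version 4 form 5. In glomeruli the count was 0; the independent filter gave 1, DESeq2 2, edgeR's version 4 form 3 and only the libraries compared 5 (Erg, Fli1, Gata5, Sox17 and Tbx3). In venules it was 0, and 1 (Fli1) with only the libraries compared. Against the mean of the other compartments, the arteriole count of 2 became 1 (Sox17) with the replicate block and 4 in edgeR's version 4 form; the peritubular capillary count of 0 became 3 in DESeq2 and 1 with all 20 libraries. Between arterioles and glomeruli 0 became 1 (Gata5) in DESeq2 and with only the libraries compared. Between arterioles and peritubular capillaries 1 became 2 with the independent filter, 4 in edgeR's version 4 form, 3 in DESeq2 and 0 with only the libraries compared, where Sox7 was not tested. Between arterioles and venules 0 became 1 (Sox17) with no filter, the independent filter, the replicate block and DESeq2, and 2 in edgeR's version 4 form. Between glomeruli and peritubular capillaries 1 became 3 in DESeq2 and 2 with only the libraries compared; between glomeruli and venules 0 became 1 in edgeR's version 4 form and with only the libraries compared, and 2 in DESeq2. The cause of these shifts was not tested. RLE scaling moved the median log2 fold change of all genes by -0.13 to 0.28, most in contrasts with arterioles.

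Leaving out 1 library at a time gave 0 to 2 called members in arterioles against whole kidney, 0 to 3 in arterioles and 0 to 1 in venules (1 without venule 96, Sox17) against the mean of the others. Between pairs it gave 0 to 1 for arterioles and peritubular capillaries, 0 to 1 for arterioles and venules, 0 for glomeruli and peritubular capillaries, 0 to 1 for glomeruli and venules, and 0 to 1 for peritubular capillaries and venules; Sox17 appeared in the last 3 pairs with venules without venule 96, and Tbx3 without venule 98 in the pairs with arterioles and glomeruli. Per 1000 pan-endothelial counts, 0 tests passed adjustment on both scales (13 at the smallest exact permutation p, and 14 with Pecam1 and Cdh5 alone). The smallest possible p nearly fixed this outcome in advance. Without 1 library the smallest p is 0.0571 where that library enters, so leaving 1 out says nothing of stability.

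The study's methods collected the compartments mouse by mouse, but neither they nor the labels say whether a library number marks a mouse. The main tests therefore did not take the numbers to pair the samples. Deviations of same-numbered libraries correlated between -0.053 and 0.071 in 40 pairs, and 15 of 20 libraries correlated best with their own number, a hint from the data only. The ratios of mean CPM without 1 library were added after the data were seen. Depth and counts near 0 limit the members near 1 CPM.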
